A study of Rattus norvegicus with 16 samples.

Results

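Fbxo32, Trim63, Foxo1 and Foxo3 encode a transcription factor and ubiquitin ligase pathway of muscle wasting, and their RNA was measured in the hearts of rats given doxorubicin (DOX) or saline. The 4 genes were picked by their Ensembl identifiers, ENSRNOG00000006738 (Fbxo32), ENSRNOG00000016543 (Trim63), ENSRNOG00000013397 (Foxo1) and ENSRNOG00000000299 (Foxo3), out of 32545 genes in the files, and 4 of 4 passed the filter on low counts that left 13607 genes to test. The RNAseq libraries came from 16 male Wistar rats, aged 6 to 8 weeks at the start, with 1 library per heart collected at week 6. The 6 DOX high rats (numbers 30 to 33, 38 and 39) were injected intravenously with 3 mg per kg DOX in each of 5 weeks, which adds up to 15 mg per kg. The 10 saline control rats (numbers 5 to 10 and 34 to 37) had received intravenous saline weekly, 5 times according to the sample labels and 6 times according to the methods. DOX is an anthracycline used in chemotherapy that damages the heart, and the comparison asks how the RNA of these genes differed in hearts after repeated DOX.

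Muscle shrinks when protein breakdown outruns synthesis, and much of the breakdown of contractile proteins runs through ubiquitin ligases that mark proteins for the proteasome. Atrogin-1, the product of Fbxo32, is the F-box subunit that picks targets for an SCF ubiquitin ligase, and MuRF1, the product of Trim63, is a RING-finger ligase of the sarcomere whose known targets include myosin heavy chain and troponin I. Both genes are classical targets of the forkhead factors FoxO1 and FoxO3, which insulin and IGF-1 signalling keeps out of the nucleus through phosphorylation by Akt, and Trim63 is also known as a target of the glucocorticoid receptor. The activity of FoxO proteins is set largely by phosphorylation and location, which RNA levels do not report.

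The promoter of Trim63 is shown because it places the motifs of both regulators next to each other. The sequence is from RefSeq (GRCr8, plus strand, chr5:151816986-151817235) and covers the 250 bases before the start of the gene, a stretch of 56.8% G and C. The capitals mark TGTTCT, the reverse complement of the glucocorticoid receptor core AGAACA, and, directly after it without overlap, TGTTTAC, the reverse complement of the FoxO core GTAAACA.
Trim63: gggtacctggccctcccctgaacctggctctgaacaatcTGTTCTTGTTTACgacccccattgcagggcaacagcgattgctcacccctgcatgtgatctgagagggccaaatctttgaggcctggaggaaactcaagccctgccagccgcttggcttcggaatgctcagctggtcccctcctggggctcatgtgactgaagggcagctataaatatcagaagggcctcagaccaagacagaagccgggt
The receptor core begins 211 bases and the FoxO core 205 bases before the start. Read on both strands, GTAAACA was present in 3.21% of the 33469 promoter windows of that length, AGAACA in 17.5%, and both in 0.621%. The insulin response core CAAAACA, present in 5.46% of the windows, was not found in the Trim63 window, and the Foxo1 window held none of these 3 motifs. The windows of Fbxo32 and Foxo3 were not analysed here. A match of letters describes the window and is no evidence of binding.

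The libraries held between 13784896 and 18025615 counted fragments, of which 96 to 2833 fell on any 1 of the 4 genes in a library. Counting error for these genes was between 1.88% and 10.2%, whereas the common biological coefficient of variation over all genes was 0.316, so the spread between rats set the precision. Libraries were compared on CPM, the counts per 1000000 counted fragments after scaling with TMM factors, and levels of different genes were compared on TPM, the deposited transcript abundances, which are corrected for gene length and also sum to 1000000 in a library. Libraries that stood apart are named here, and the fold changes are given without them where that changes a call, a sign or a size. The library of saline rat 37 correlated more closely with the DOX high libraries (median r = 0.973 over 13607 genes) than with the other saline libraries (median r = 0.946), while each other saline library was closer to its own group. The library of DOX high rat 32 had 553 genes at more than 2-fold above every other rat and the highest TMM factor (1.36). The library of saline rat 10 had 131 such genes and a median r of 0.942 with the other saline libraries. Without it 770 of 13571 genes were called, and Fbxo32 was the only member among them, as with all rats (log2 fold change -1.09, edgeR adjusted p = 0.0224). In the libraries of saline rats 6, 36 and 37 the 10 most abundant genes took 22.02%, 24.4% and 24.4% of the counts, against 30.8% or more in the other saline libraries, and in DOX high rat 32 they took 18.7%. Each library is a different rat. Rats 5 to 10 were all saline-treated, so the comparisons are also given within rats 30 to 39, where both treatments occur. In bulk tissue, fewer cells of a type and less RNA per cell cannot be told apart. The counting did not use strand, so reads from a gene overlapping on the other strand are not separated.

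Fbxo32 was the member that differed most. Its RNA in DOX high hearts was about 0.494 of that in saline hearts, it passed the adjusted threshold, and all 6 DOX high rats lay below the saline median. In CPM, Foxo1 was lower in all 6 DOX high rats than the saline median too, at 0.743 of the saline level, but missed the threshold. In TPM, DOX high rat 32 (14.98) was above the saline median for Foxo1 (10.0). Trim63 and Foxo3 did not differ detectably between the groups with all rats, though the value for Foxo3 depended on 3 saline libraries described with it.

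The level of Fbxo32 in saline hearts was 50.9 CPM in rat 5, 149.7 in rat 6, 70.4 in rat 7, 78.4 in rat 8, 46.5 in rat 9, 45.1 in rat 10, 69.7 in rat 34, 84.2 in rat 35, 103.2 in rat 36 and 87.5 in rat 37. In DOX high hearts it was 39.9 CPM in rat 30, 44.2 in rat 31, 23.5 in rat 32, 48.6 in rat 33, 29.9 in rat 38 and 47.0 in rat 39. Of the saline rats, 8 were above the highest DOX high rat and 2 (rats 9 and 10) were inside the DOX high range, and 4 DOX high rats were below the lowest saline rat. Rat 37, whose library as a whole was nearer the DOX high libraries, had one of the higher Fbxo32 levels of the saline group. The group means were 78.5 ± 31.3 CPM (SD, n = 10) in saline and 38.8 ± 10.1 (SD, n = 6) in DOX high hearts. The log2 fold change was -1.02 ± 0.25 (SE, 95% confidence interval -1.55 to -0.49; edgeR quasi-likelihood test, p = 0.0274 after Benjamini-Hochberg adjustment). Of the 13607 genes tested, 6.25% passed this threshold in either direction and 2.24% passed it and were lower in DOX high hearts. Fbxo32 was the 399th gene by p-value, and 1.82% of genes had a smaller log2 fold change.

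The direction for Fbxo32 held within rats 30 to 39, where every DOX high rat was below every saline rat (69.7 to 103.2 CPM), an arrangement that 2.17% of tested genes showed there. With all rats no member separated the groups fully, and 0.294% of tested genes were lower in every DOX high rat than in every saline rat. The log2 fold change within rats 30 to 39 was -1.16 ± 0.20 (SE, 95% confidence interval -1.60 to -0.71; edgeR, unadjusted p = 0.000146), but the adjusted p was 0.115. In that smaller comparison edgeR called 0.0% of genes (0 of 13730, with 1891 at an unadjusted p under 0.05). In a fit added after seeing the data, with rat 37 left out of these rats, 2.2% of genes were called and Fbxo32 was among them (log2 fold change -1.14, edgeR adjusted p = 0.0395). With the block of animal numbers (5 to 10, or 30 to 39) as a covariate, 0.0147% of genes were called, and Fbxo32 was not (log2 fold change -1.15 ± 0.30, edgeR adjusted p = 0.157). Fbxo32 was also not called with rat 37 left out of the fit with the block (-1.14, edgeR adjusted p = 0.0783). In that fit, also added after seeing the data, 347 of 13530 genes were called. With saline rat 6 left out of the fit with the block, likewise added after seeing the data, 29 of 13569 genes were called. Fbxo32 was among them (-1.16, edgeR adjusted p = 0.0390).

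The call for Fbxo32 rested on single libraries, whereas its direction did not. Without DOX high rat 32, in which Fbxo32 was lowest in CPM, the log2 fold change was -0.91 and the edgeR adjusted p was 0.0523, in a fit that called 4.46% of genes. Without DOX high rat 38, the next lowest, they were -0.95 and 0.0656, with 345 of 13689 genes called. Without saline rat 37 they were -0.999 and 0.0197, with 13.0% of genes called. Without saline rat 6, in which Fbxo32 was highest, they were -0.87 and 0.0305, with 680 of 13569 genes called. DESeq2 gave a log2 fold change of -1.02 with an adjusted p of 0.00153 and called 11.8% of genes. An exact permutation test of the log2 CPM of Fbxo32 alone, added after seeing the data, gave a difference of -0.97 with a two-sided p = 0.00175, and within rats 30 to 39 a difference of -1.18 with p = 0.00952, the smallest p that 6 rats against 4 allow.

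**Figure D1:**
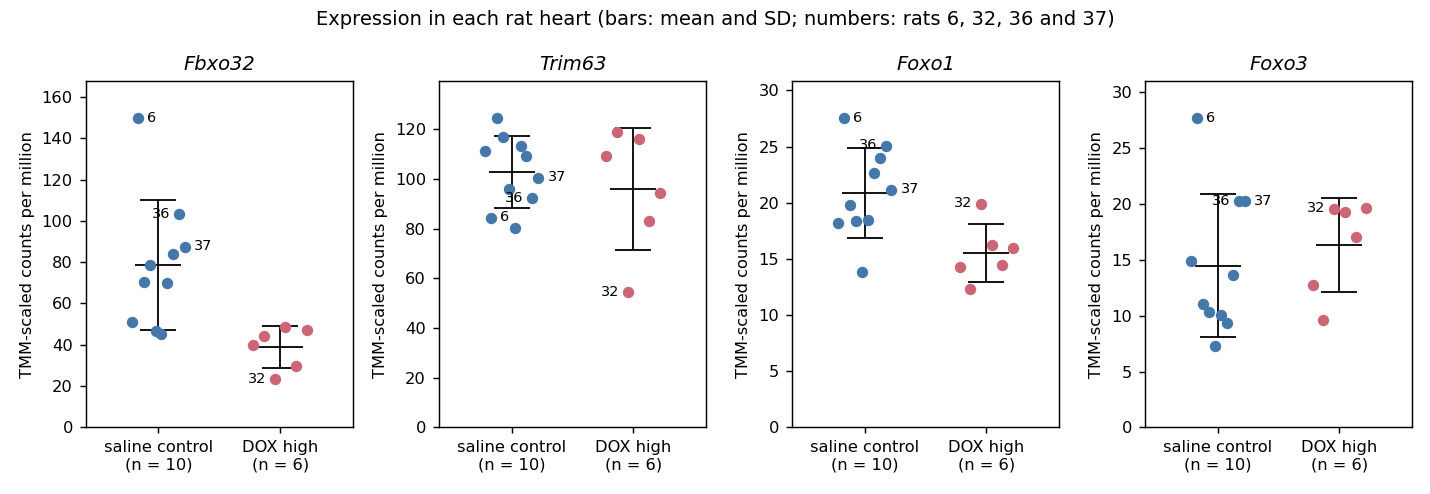
TMM-scaled CPM (y axis, from 0) of Fbxo32, Trim63, Foxo1 and Foxo3 in each heart, with 1 point per rat, 10 saline control and 6 DOX high, bars for the mean and SD, and rats 6, 32, 36 and 37 numbered. For Fbxo32 all 6 DOX high points lie at 48.6 or lower and 8 saline points lie above them, while the groups overlap widely for Trim63 and Foxo3.

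Trim63, the other ligase, did not follow Fbxo32. In saline hearts it was at 111.1 CPM in rat 5, 84.5 in rat 6, 124.5 in rat 7, 117.1 in rat 8, 96.1 in rat 9, 80.1 in rat 10, 113.3 in rat 34, 109.3 in rat 35, 92.2 in rat 36 and 100.6 in rat 37. Among DOX high hearts it was at 109.3 CPM in rat 30, 118.8 in rat 31, 54.4 in rat 32, 116.0 in rat 33, 83.2 in rat 38 and 94.4 in rat 39. All DOX high rats except rat 32 lay within the saline range, and 3 of 6 were below the saline median. The means were 102.9 ± 14.6 CPM (SD, n = 10) in saline and 96.0 ± 24.5 (SD, n = 6) in DOX high hearts, and the log2 fold change was -0.10 ± 0.14 (SE, 95% confidence interval -0.41 to 0.21; edgeR adjusted p = 0.717). The difference was smaller than the spread between rats, and its sign turned without rat 32 (log2 fold change 0.02, 95% confidence interval -0.21 to 0.25, edgeR adjusted p = 0.939). Within rats 30 to 39 it was -0.12 (95% confidence interval -0.55 to 0.31; edgeR adjusted p = 0.817). The low value in rat 32 came with that library's TMM factor of 1.36, and in TPM, which were not scaled this way, rat 32 had 55.2, just above the lowest saline rat at 54.2. The part of the scaling in this value was not tested.

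Foxo1 encodes a forkhead factor that links insulin signalling to metabolism and protein breakdown. It was at 18.2 CPM in saline rat 5, 27.5 in rat 6, 19.8 in rat 7, 18.4 in rat 8, 13.79 in rat 9, 18.4 in rat 10, 22.6 in rat 34, 24.0 in rat 35, 25.1 in rat 36 and 21.2 in rat 37. The DOX high hearts had 14.3 CPM in rat 30, 12.3 in rat 31, 19.9 in rat 32, 16.3 in rat 33, 14.4 in rat 38 and 16.0 in rat 39. Of the saline rats 5 were above the highest DOX high rat, and saline rat 9 was lower than 5 of the 6 DOX high rats. The means were 20.9 ± 4.02 CPM (SD, n = 10) and 15.5 ± 2.58 (SD, n = 6). The log2 fold change was -0.43 ± 0.14 (SE, 95% confidence interval -0.71 to -0.14; edgeR adjusted p = 0.0661, unadjusted p = 0.00572), and 8.75% of genes had a smaller one. Foxo1 therefore did not pass the threshold over all genes, though its interval lay below 0.

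Foxo1 sat close to the threshold, and several choices moved it across. It passed with DESeq2 (log2 fold change -0.44, adjusted p = 0.0243), which called 11.8% of genes. It passed without DOX high rat 32 (-0.52, edgeR adjusted p = 0.0435), where 4.46% of genes were called. Without saline rat 9 it passed too (-0.48, edgeR adjusted p = 0.0303), with 866 of 13609 genes called. It also passed with rats 37 and 32 both left out (-0.51, edgeR adjusted p = 0.0274), a fit in which 13.0% of genes were called. Within rats 30 to 39 every DOX high rat was below every saline rat in CPM (saline 21.2 to 25.1), as 2.17% of tested genes were there. In TPM the groups overlapped, since DOX high rat 32 (14.98) was above saline rats 34 (10.77), 35 (12.49) and 37 (12.28). The log2 fold change within rats 30 to 39 was -0.58 ± 0.13 (SE, 95% confidence interval -0.86 to -0.30; edgeR adjusted p = 0.128). The exact permutation test of log2 CPM, added after seeing the data and unadjusted, gave a difference of -0.42 (two-sided p = 0.0107) with all rats. Within rats 30 to 39 it gave -0.59 (p = 0.00952, the smallest possible). For Trim63 the same test gave -0.13 (p = 0.442) with all rats and -0.16 (p = 0.619) within rats 30 to 39. For Foxo3 it gave 0.24 (p = 0.403) and 0.06 (p = 0.943). When only library totals were used for scaling, the log2 fold change was -0.35 ± 0.21 (SE; edgeR adjusted p = 0.343).

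Foxo3 encodes the forkhead factor best known for driving the atrophy ligases and autophagy genes in muscle. It was at 14.9 CPM in saline rat 5, 27.7 in rat 6, 11.1 in rat 7, 10.4 in rat 8, 7.28 in rat 9, 10.0 in rat 10, 9.39 in rat 34, 13.7 in rat 35, 20.3 in rat 36 and 20.2 in rat 37. The DOX high hearts had 12.7 CPM in rat 30, 9.58 in rat 31, 19.6 in rat 32, 19.3 in rat 33, 17.1 in rat 38 and 19.7 in rat 39. All 6 DOX high rats were within the saline range, and 1 was below the saline median. The 3 saline rats above every DOX high rat were rats 6, 36 and 37, the libraries in which the most abundant genes took the smallest shares. The means were 14.5 ± 6.40 CPM (SD, n = 10) in saline and 16.3 ± 4.23 (SD, n = 6) in DOX high hearts. The log2 fold change was 0.17 ± 0.26 (SE, 95% confidence interval -0.38 to 0.72; edgeR adjusted p = 0.735). Without saline rat 6 it was 0.32 (95% confidence interval -0.17 to 0.80; edgeR adjusted p = 0.426), and within rats 30 to 39 it was 0.03 (95% confidence interval -0.54 to 0.60; edgeR adjusted p = 0.973). In a fit added after seeing the data, without saline rats 6, 36 and 37, it was 0.57 ± 0.19 (SE, 95% confidence interval 0.16 to 0.98; edgeR unadjusted p = 0.00974, adjusted p = 0.0596), where 14.6% of genes were called. With DOX high rat 32 left out as well it was 0.52 (edgeR adjusted p = 0.0854), where 19.0% of genes were called. These fits remove the highest Foxo3 levels of the saline group, so their size is no independent measure of a difference.

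**Figure D2:**
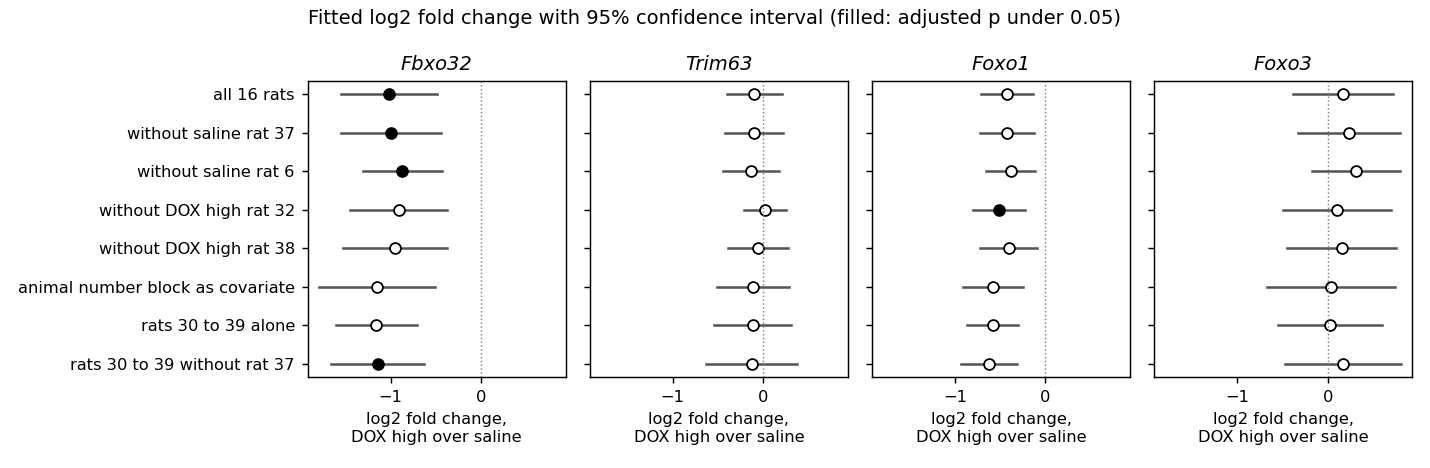
Fitted log2 fold change of DOX high over saline (x axis) with its 95% confidence interval for each gene, in rows for all 16 rats, for fits with single rats left out, for the number block as a covariate and for rats 30 to 39. The Fbxo32 intervals all lie below 0 and the point for all rats is at -1.02, whereas the Trim63 and Foxo3 intervals all cross 0; filled points mark an edgeR adjusted p under 0.05.

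Among the saline hearts, rats 34 to 37 were not told apart from rats 5 to 10 for any of the 4 genes. The difference in mean log2 CPM was 0.35 for Fbxo32 (p = 0.333), 0.04 for Trim63 (p = 0.8), 0.29 for Foxo1 (p = 0.124) and 0.30 for Foxo3 (p = 0.514), by two-sided exact permutation tests of 4 rats against 6. All 4 differences had the higher mean in rats 34 to 37, the block that also holds the DOX high rats.

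Per unit of length, Trim63 was the most abundant of the 4 RNAs in the heart. In saline hearts Trim63 was at 72.0 ± 9.39 TPM, Fbxo32 at 35.2 ± 21.7, Foxo1 at 11.3 ± 4.18 and Foxo3 at 7.22 ± 4.71 (mean ± SD, n = 10). In DOX high hearts the levels were 68.3 ± 10.7 TPM for Trim63, 16.6 ± 3.22 for Fbxo32, 8.66 ± 3.21 for Foxo1 and 8.06 ± 3.12 for Foxo3 (mean ± SD, n = 6). Over all rats, 91.5% of tested genes had a lower mean TPM than Trim63, 79.5% than Fbxo32, 55.8% than Foxo1 and 47.7% than Foxo3. Trim63 exceeded Fbxo32 in 9 of 10 saline libraries, all but that of rat 6, and in 6 of 6 DOX high libraries. Foxo1 exceeded Foxo3 in 10 of 10 saline libraries but in 3 of 6 DOX high libraries, where their means differed by less than either SD. Fbxo32 exceeded Foxo1 in every library except that of rat 32.

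A ratio of genes in the same library does not depend on how libraries are scaled, and both main ratios differed between the groups. Trim63 to Fbxo32 compares the ligases with each other. It was 3.66 in saline rat 5, 0.946 in rat 6, 2.97 in rat 7, 2.50 in rat 8, 3.47 in rat 9, 2.98 in rat 10, 2.72 in rat 34, 2.18 in rat 35, 1.498 in rat 36 and 1.93 in rat 37. In DOX high hearts it was 4.60 in rat 30, 4.51 in rat 31, 3.89 in rat 32, 4.004 in rat 33, 4.67 in rat 38 and 3.36 in rat 39. Rats 5 and 9 alone of the saline group reached into the DOX high range, and within rats 30 to 39 the groups did not overlap. The mean log2 ratio was 1.22 ± 0.60 (SD, n = 10) in saline and 2.05 ± 0.18 (SD, n = 6) in DOX high hearts, a difference of 0.84 (exact permutation test, two-sided p = 0.000749, and 0.0015 after Benjamini-Hochberg adjustment over the 2 ratios). It was 1.03 within rats 30 to 39 (exact permutation test, p = 0.00952, the smallest possible). Leaving out any 1 rat left the difference between 0.69 and 0.91, with every p under 0.05.

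The ratio of Foxo3 to Foxo1 compares the factors with each other. It ranged from 0.369 to 0.894 in saline libraries (median 0.504) and from 0.691 to 1.10 in DOX high libraries (median 0.958). In 4 saline rats (5, 6, 36 and 37) it reached the DOX high range. The mean log2 ratio was -0.79 ± 0.42 (SD, n = 10) in saline and -0.13 ± 0.27 (SD, n = 6) in DOX high hearts, a difference of 0.66 (two-sided exact permutation test, p = 0.00599, also after adjustment over the 2 ratios). Within rats 30 to 39 the difference was of the same size, 0.65, and did not pass (exact permutation test, p = 0.0571). Neither Foxo1 nor Foxo3 alone passed the threshold after adjustment over all tested genes, whereas the ratio was adjusted over the 2 ratios only. Before adjustment, the edgeR p of Foxo1 (0.00572) was close to the permutation p of the ratio (0.00599), and the edgeR p of Foxo3 was 0.528. The call of the ratio and the missing call of Foxo1 are therefore not comparable.

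The other 4 ratios were tested after these values were seen, with adjustment over all 6 ratios. Fbxo32 to Foxo3 was 3.099 to 6.87 in saline libraries and 1.09 to 4.18 in DOX high libraries, a log2 difference of -1.21 (two-sided exact permutation test, adjusted p = 0.003), and it was -1.24 within rats 30 to 39 (exact permutation test, p = 0.019). Fbxo32 to Foxo1 differed by -0.55 on the log2 scale (exact permutation test, adjusted p = 0.0446) but not past 0.05 without DOX high rat 32 (-0.34, unadjusted p = 0.0793) or without rat 38 (-0.50, unadjusted p = 0.0773). Within rats 30 to 39 it differed by -0.59 (exact permutation test, p = 0.0286). Trim63 to Foxo1 differed by 0.29 (exact permutation test, adjusted p = 0.321), although without rat 32 the difference was 0.52 with an unadjusted p = 0.020. Trim63 to Foxo3 differed by -0.37 (exact permutation test, adjusted p = 0.321). Within rats 30 to 39 the differences were 0.44 for Trim63 to Foxo1 (exact permutation test, p = 0.229) and -0.21 for Trim63 to Foxo3 (exact permutation test, p = 0.695).

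**Figure D3:**
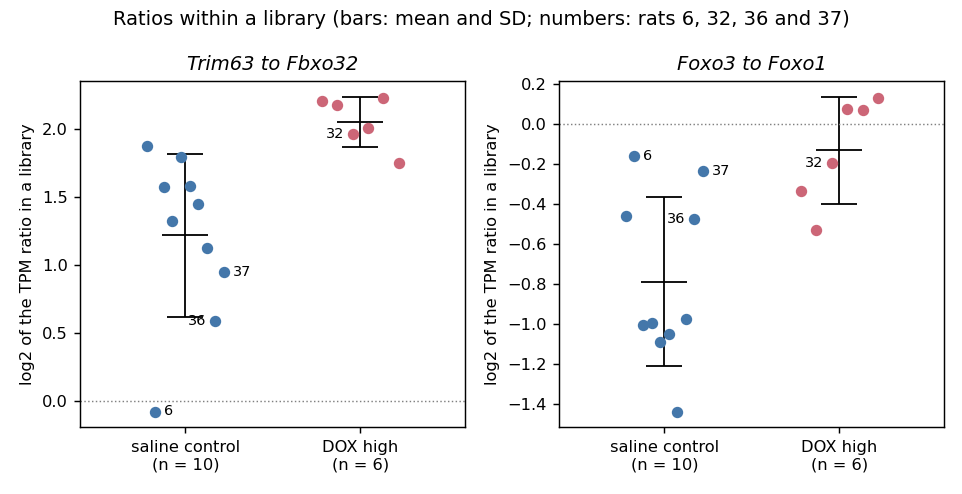
Log2 of the TPM ratio (y axis) of Trim63 to Fbxo32 and of Foxo3 to Foxo1 in each library, with 1 point per rat, bars for the mean and SD, and a dotted line where the genes are equal. DOX high libraries average 2.05 against 1.22 in saline for Trim63 to Fbxo32, and -0.13 against -0.79 for Foxo3 to Foxo1, where 4 saline rats reach the DOX high range.

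The genes also differed in how variable they were between saline rats. The coefficient of variation of CPM over the saline rats was 39.9% for Fbxo32 and 44.2% for Foxo3, higher than that of 93.6% and 92.5% of the genes within 0.5 log2 CPM of their level. It was 14.2% for Trim63 and 19.3% for Foxo1, which exceeded 46.0% and 63.9% of genes of like level. In TPM the coefficient of variation was 61.6% for Fbxo32, 65.2% for Foxo3, 37.1% for Foxo1 and 13.05% for Trim63. Between the highest and the lowest saline rat the CPM differed 3.32-fold for Fbxo32, 3.81-fold for Foxo3, 2.00-fold for Foxo1 and 1.55-fold for Trim63. In CPM, rat 6 was the highest saline rat for Fbxo32, Foxo1 and Foxo3, but not for Trim63. In TPM it was the highest for Trim63 too (82.8). Saline rats 6, 36 and 37, in whose libraries the top genes took the smallest shares, held the 3 highest levels of Fbxo32 and of Foxo3. Without them the saline mean of Fbxo32 was 63.6 ± 15.9 CPM (SD, n = 7), above the DOX high mean of 38.8, and that of Foxo3 was 10.96 ± 2.59 CPM, below the DOX high mean of 16.3. The log2 fold change of Fbxo32 without them was -0.71 (edgeR adjusted p = 0.0285), and -0.60 with DOX high rat 32 also left out (edgeR adjusted p = 0.0302). That of Foxo1 was -0.32 (edgeR adjusted p = 0.114) and -0.39 (edgeR adjusted p = 0.0384). DOX high rat 32, with the smallest share of all, had the lowest Fbxo32 level of any rat in CPM (23.5). In TPM, DOX high rat 38 was lowest (12.2, against 14.2 in rat 32).

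Within the saline group Fbxo32, Foxo1 and Foxo3 varied together from rat to rat. Across the 10 saline rats the log2 CPM of Fbxo32 and Foxo1 correlated with Pearson r = 0.849 (permutation p = 0.00096, adjusted over 12 relations p = 0.0115) and Spearman rho = 0.794 (permutation p = 0.0098, adjusted p = 0.0588). Without rats 6 and 10, the farthest from the Fbxo32 median, r was 0.841. In each pair the rats left out were chosen on the gene named first alone. For Fbxo32 and Foxo3 r was 0.8 (permutation p = 0.00584, adjusted p = 0.0305) and rho 0.818 (permutation p = 0.00592, adjusted p = 0.0588), with r = 0.659 without rats 6 and 10. For Foxo1 and Foxo3 r was 0.766 (permutation p = 0.00762, adjusted p = 0.0305) and rho 0.636 (permutation p = 0.0554, adjusted p = 0.175), with r = 0.441 without rats 6 and 9. None of the rank correlations passed after adjustment.

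The correlations were lower without the 3 libraries in which the top genes took the smallest shares, most so for Fbxo32 and Foxo3. Without saline rats 6, 36 and 37, r was 0.715 for Fbxo32 and Foxo1, 0.333 for Fbxo32 and Foxo3, and 0.576 for Foxo1 and Foxo3, over 7 rats. Leaving out the 3 highest Foxo3 levels also narrows the range over which these are computed. Among saline rats 5 to 10, r was 0.862, 0.804 and 0.922 for these pairs, and rats 34 to 37 are too few for a value. The part that the top genes' share of a library plays in these correlations was not tested beyond leaving those rats out.

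Trim63 showed no detectable correlation with the other 3 genes over all 10 saline hearts on the TMM scale, with r = -0.108 with Fbxo32, -0.149 with Foxo1 and -0.329 with Foxo3 (permutation p of 0.753, 0.693 and 0.349, adjusted p of 0.753, 0.753 and 0.465; rho of -0.0909, -0.273 and -0.261 with permutation p of 0.809, 0.448 and 0.471). This depended on the rats and on the scaling. Without rats 6, 36 and 37 the same correlations were 0.737, 0.373 and 0.342 on the TMM scale, and on log2 TPM over all 10 rats they were 0.830, 0.732 and 0.692. The correlations among Fbxo32, Foxo1 and Foxo3 kept their sign on log2 TPM, at 0.896 to 0.939.

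The 6 DOX high rats gave little precision, and the signs for Fbxo32 with both factors turned without rats 32 and 38. Each r with 2 rats left out here is over 4 rats, too few for a reliable value or sign. The rats left out were again the farthest from the median of the gene named first. With all 6 rats r was -0.534 for Fbxo32 and Foxo1 (exact permutation p = 0.322, adjusted p = 0.465; rho = -0.0857, exact permutation p = 0.919) and -0.262 for Fbxo32 and Foxo3 (exact permutation p = 0.706, adjusted p = 0.753; rho = 0.0857, exact permutation p = 0.919). Without rats 32 and 38 these were 0.548 and 0.650. Foxo1 and Foxo3 correlated with r = 0.828 (exact permutation p = 0.0111, adjusted p = 0.0333) and rho = 0.829 (exact permutation p = 0.0583, adjusted p = 0.175), and r was 0.837 without rats 31 and 32. Fbxo32 and Trim63 had r = 0.906 (exact permutation p = 0.0361, adjusted p = 0.0866; rho = 0.714, exact permutation p = 0.136), and r was -0.130 without rats 32 and 38. Trim63 had r = -0.778 with Foxo1 and -0.537 with Foxo3 (exact permutation p = 0.119 and 0.194, adjusted p = 0.238 and 0.333; rho = -0.600 for both, exact permutation p = 0.242), and -0.525 and -0.578 without rats 32 and 38. The difference between the correlations of the 2 groups was not tested.

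**Figure D4:**
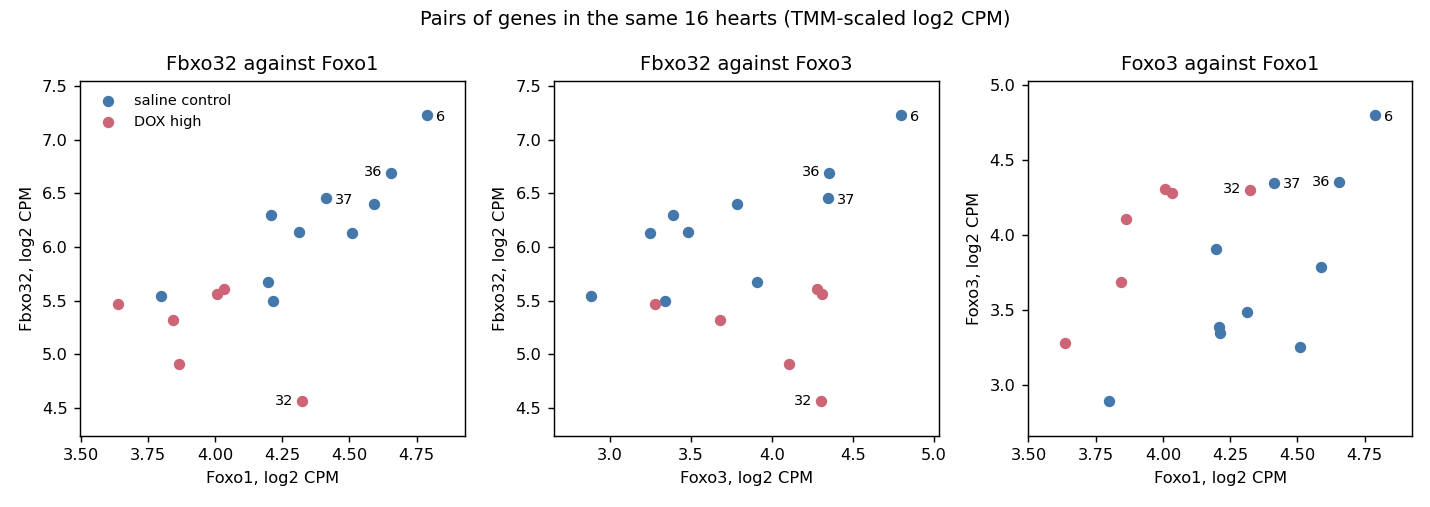
TMM-scaled log2 CPM of Fbxo32 against Foxo1, Fbxo32 against Foxo3, and Foxo3 against Foxo1, with 1 point per rat, coloured by group, and rats 6, 32, 36 and 37 numbered. The saline points rise together (r of 0.849, 0.8 and 0.766), and the DOX high points lie low on the Fbxo32 axis, with rat 32 lowest.

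The 4 genes were also correlated over all 16 libraries with the 8746 genes whose log2 CPM averaged 3 or more. The closest of so many genes is likely to be nearer than any of 3 given genes. The top values are therefore no measure of how alike the 4 are. The gene most like Fbxo32 was ENSRNOG00000027491 (r = 0.963), while Foxo1 ranked 560th (r = 0.715), Trim63 2250th (r = 0.381) and Foxo3 3129th (r = 0.224). The genes most like Trim63, Foxo1 and Foxo3 were ENSRNOG00000006375 (r = 0.968), ENSRNOG00000019145 (r = 0.918) and ENSRNOG00000004956 (r = 0.903). For Foxo1, Fbxo32 ranked 253rd. These correlations pool both groups over the same libraries, so a difference between groups enters them, and they are given as a description. On deviations from the group means, r for Fbxo32 was 0.492 with Foxo1, 0.326 with Trim63 and 0.552 with Foxo3. For Foxo1 and Foxo3 it was 0.78 (0.454 pooled). Trim63 had -0.405 with Foxo1 (-0.17 pooled) and -0.369 with Foxo3 (-0.4 pooled). An r over 0.8 was reached by 264 genes with Fbxo32, 411 with Trim63, 67 with Foxo1 and 58 with Foxo3.

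The other genes of the pathway, such as the Akt and insulin receptor genes, further FoxO targets, proteasome and autophagy genes, and the marker genes of cardiomyocytes and other heart cells, were not analysed here, because the files give Ensembl identifiers without names and 0 of them matched the gene table used for names. The labelled tissue was therefore not checked against its markers.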

How the data were processed

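RNA of about 30 mg of snap-frozen heart was sequenced by the authors as strand-specific polyadenylated RNAseq libraries, and read pairs were aligned to Rnor_6.0 with Hisat2. The deposited counts are whole fragments on annotated exons from featureCounts (Subread 1.5.0) with default settings, without normalization. The deposited TPM values were made by the authors from these counts with R scripts, by gene length and library total. Genes were kept by filterByExpr, scaled by TMM and tested with edgeR 4.0.16 (glmQLFit, glmQLFTest, no covariates) in R 4.3.3, with Benjamini-Hochberg adjustment over 13607 genes and a threshold of 0.05. Log2 CPM used a prior count of 2. Standard errors are the log2 fold change over the square root of F. The script was tested on simulated data. Ratios and correlations were tested by permutation (Python 3.11.15, scipy 1.17.1, numpy 2.4.6), exactly for ratios and for 6 rats, and with 100000 resamples for 10 rats. Alternatives were DESeq2 1.42.0, limma 3.58.1 on log2 TPM with 1 or 0.1 added, other scalings and filters, rats 30 to 39, the number block, a threshold of 0.01 and leaving out rats. The 4 genes, the lists and the tests were chosen with earlier results of these data known. Named genes were the 4 members and, by rule, the 3 genes most correlated with each, of which 1 each is given because identifiers could not be matched to names. The p-values measure the spread between rats.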

Additional observations from a re-analysis of the deposited data

How the results depend on the processing

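With all rats and edgeR, 1 of the 4 genes was called, as were 6.25% of all tested genes. Over the alternative fits the share of all genes called ran from 0.0% (rats 30 to 39) to 19.0% (rats 6, 36, 37 and 32 left out). Without rat 32 the member called was Foxo1, and Fbxo32 was not called. The number of members called stayed at 1 in 20 of 32 alternatives. It was 0 with library totals alone, both limma fits, rats 30 to 39, the number block (also without rat 37), the threshold of 0.01 and without rat 38, and it was 2 with DESeq2, with rats 37 and 32 both left out, with rats 6, 36, 37 and 32 left out (added after seeing the data) and without rat 9. Fbxo32 kept its direction in all 31 of its alternatives and lost the threshold in 8: library totals (-1.03), limma on log2(TPM + 1) (-0.88) and log2(TPM + 0.1) (-0.91; adjusted p = 0.115), rats 30 to 39 (-1.16), the number block (-1.15) and the block without rat 37 (-1.14; edgeR adjusted p = 0.0783), the latter added after seeing the data, and without rat 32 or 38. Leaving out 1 rat gave -1.09 to -0.87. Foxo1 kept its direction in all 31 and passed in 5, with DESeq2 (-0.44), rats 37 and 32 left out (-0.51), rats 6, 36, 37 and 32 left out (-0.39), and without rat 9 or 32; leaving out 1 rat gave -0.52 to -0.37 and 0 to 2 genes called. Trim63 was between -0.17 and 0.02 with 1 rat left out, and turned to 0.02 without rat 32 (0.018) and with rats 37 and 32 left out (0.021). Foxo3 was between 0.09 and 0.32 with 1 rat left out, 0.03 in rats 30 to 39, 0.04 with the block and 0.57 without rats 6, 36 and 37, and passed in none of its 31 alternatives. Foxo3 to Foxo1 lost its call within rats 30 to 39 (0.65) and was 0.59 to 0.74 with 1 rat left out, and Trim63 to Fbxo32 kept its call in all 18 of its alternatives. Of those 18, the ratio of CPM had to repeat the main value, because scaling cancels within a library. The others only left out rats, and no ratio was tested with the number block as a covariate. A call of a ratio here was an unadjusted permutation p under 0.05. The cause of these changes was not tested. No paired analysis was possible because no animal number occurs in both groups. The planned counts over gene lists were not run, since no identifier could be matched to a name. Of the 4 genes, counting error was largest for Foxo3, at up to 10.2%, below its coefficient of variation of 44.2% between saline rats.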
